A study of Mus musculus with 16 samples.

Results

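Ccl11, Ccl24 and Ccr3 encode the eotaxins of the mouse studied here and the receptor through which both act. Their probe sets were chosen by gene symbol alone, each gene had 1 probe set, and they are 3 of the 19938 genes that the arrays measured with a single symbol. Eotaxins are small CC chemokines secreted by fibroblasts, epithelium and macrophages, and they draw eosinophils along a gradient into tissue. Ccr3, a receptor with several membrane-spanning helices that signals through G proteins, is the main chemokine receptor of eosinophils and is also found on basophils, mast cells and some type 2 helper T cells. In allergic lungs the cytokines Il4 and Il13, acting through Stat6, are the best known inducers of both eotaxin genes.

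The study hybridised total RNA from whole mouse lungs to 16 whole-transcript arrays from Affymetrix, 4 for each of 4 groups. KO HDM mice lacked the lipoprotein receptor gene Vldlr (Vldlr-/-) and received house dust mite extract (HDM), a common airway allergen, and KO saline mice of that genotype received saline. WT HDM and WT saline mice were wild type B6129SF2/J given the same agents. Doses went into the nose in 10 µl, with 25 µg of HDM per dose in the allergen groups, on 5 days a week for 6 weeks. The labels name the strain of the WT arrays only. They call the 4 arrays of a group biological replicates. Age, the strain of the KO mice and the number of animals behind an array were not stated in the material used. Values are log2 levels, levels of different probe sets cannot be set against each other, and in whole lung a change in the number of cells of a type and a change in RNA per cell cannot be told apart.

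The median level of an array was 8.78 to 8.85, and pairs of arrays correlated at 0.9784 to 0.9972. Vldlr lay between 9.40 and 9.91 on the 8 KO arrays and between 10.27 and 10.92 on the 8 WT arrays (-0.93 under HDM, limma adjusted p = 0.000277). Scgb1a1, the secretory protein of airway club cells, was at 11.82 or above on every array. Within the WT saline group, arrays 2 and 3 differed from arrays 1 and 4 in some genes. Rnase2a, an eosinophil-associated ribonuclease, was at 11.47 and 11.22 on arrays 2 and 3 of that group and at 8.54 and 9.68 on its arrays 1 and 4. Other genes divided that group otherwise. Clca1, a mucous cell gene, was at 8.55 on its array 1 and at 11.91, 11.46 and 10.79 on its arrays 2, 3 and 4. WT saline 2 and 3 were picked by their levels and not by a label. The results on Ccl11, Ccl24, Ccr3 and the gene lists that use the WT saline group were also computed without these 2 arrays. Clock genes, which follow the time of day, moved with the groups too, with Dbp between 10.60 and 11.15 on WT HDM arrays and between 9.45 and 10.19 on the other 12.

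Ccl11, the first eotaxin, rose with HDM in both genotypes, and by a margin near the threshold more in KO lungs. On KO HDM arrays 1 to 4 it was at 10.72, 11.19, 11.42 and 11.27, and on KO saline arrays at 8.94, 9.04, 8.86 and 9.05. WT HDM arrays had 9.85, 10.10, 10.81 and 10.56, and WT saline arrays 8.87, 9.58, 9.44 and 9.41. Every HDM array of a genotype was above every saline array of it, and of the KO HDM arrays 1, number 1, lay below the highest WT HDM array. With 4 arrays a group, HDM raised Ccl11 by 2.18 in KO lungs (SE 0.19, 4.52-fold, limma adjusted p = 2.58e-06) and by 1.01 in WT lungs (SE 0.19, 2.01-fold, adjusted p = 0.00272).

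Between genotypes under HDM, Ccl11 was higher by 0.82 in KO lungs (SE 0.19, 1.76-fold, limma adjusted p = 0.0114), a call lost in a fit of only those 2 groups (adjusted p = 0.0647). The HDM change in KO minus that in WT was 1.17 (SE 0.26, adjusted p = 0.0488). That last call lies near the threshold: it was lost when 12 of the 16 arrays were left out in turn (1.01 to 1.25, largest adjusted p = 0.0976), and without WT saline 2 and 3 the value was 0.99 (adjusted p = 0.225). Under saline, Ccl11 averaged 8.98 ± 0.09 in KO lungs and 9.33 ± 0.31 in WT lungs (SD, n = 4 each) and did not pass (-0.35, adjusted p = 0.714). In order of mean level the groups ran KO HDM, WT HDM, WT saline and KO saline, and of these neighbours the 2 saline groups did not differ beyond their spread.

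**Figure D1:**
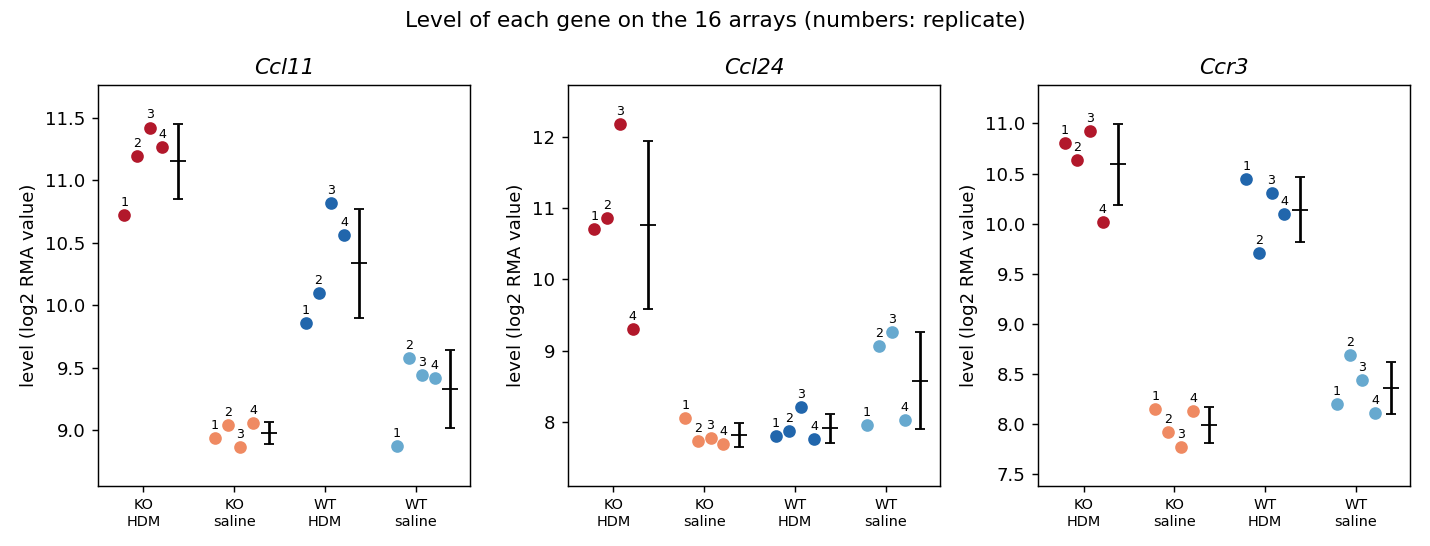
Log2 level of Ccl11, Ccl24 and Ccr3 (a panel each, with its own axis) on the 16 arrays, with the replicate number above each point and the group mean ± SD as a black bar. Ccl24 is high on the KO HDM arrays, between 9.30 and 12.18, and lies between 7.76 and 8.21 on the WT HDM arrays, whereas Ccl11 and Ccr3 are higher under HDM in both genotypes.

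Ccl24, also called eotaxin-2 and known as a product of macrophages activated by type 2 cytokines, rose with HDM in KO lungs, and no rise passed in WT lungs. Its level was 10.70, 10.85, 12.18 and 9.30 on KO HDM arrays 1 to 4, against 8.06, 7.74, 7.78 and 7.69 on the KO saline arrays. On WT HDM arrays it was 7.80, 7.88, 8.21 and 7.76, against 7.95, 9.07, 9.26 and 8.03 on the WT saline arrays. All 4 KO HDM arrays were above the other 12 arrays, KO HDM 4 only just so, and WT saline 2 and 3 were the next highest.

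The rise with HDM in KO lungs was 2.94 (SE 0.41, 7.69-fold, limma adjusted p = 0.000261). In WT lungs the change was -0.66 (95% interval -1.53 to 0.20, adjusted p = 0.25). This interval excludes a rise of the KO size. Without WT saline 2 and 3 the WT change was -0.08 (SE 0.46, adjusted p = 0.933), so the lower mean of WT HDM lungs rested on those 2 saline arrays. They were picked by levels and are the 2 highest WT saline arrays for Ccl24. A smaller fall without them therefore follows from that choice. Under HDM, Ccl24 was 7.19-fold higher in KO lungs than in WT lungs (2.85, SE 0.41, adjusted p = 0.000814), and among all 19938 genes it ranked 1 by the size of this rise. The HDM change in KO minus that in WT was 3.61 (SE 0.58, adjusted p = 0.0101), which ranked 2 of all genes, and 3.02 without WT saline 2 and 3 (SE 0.60, adjusted p = 0.0879). Under saline it averaged 7.82 ± 0.17 in KO lungs and 8.58 ± 0.68 in WT lungs (SD, n = 4 each), which did not pass (-0.76, adjusted p = 0.722). The order of the group means was KO HDM, WT saline, WT HDM and KO saline, and the ranges of neighbouring groups below KO HDM overlapped.

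Ccr3, the receptor of both ligands, rose with HDM in both genotypes to levels that overlapped. KO HDM arrays 1 to 4 had 10.80, 10.64, 10.92 and 10.01, against 8.15, 7.92, 7.77 and 8.13 on KO saline arrays. WT HDM arrays had 10.45, 9.71, 10.31 and 10.10, against 8.20, 8.69, 8.44 and 8.11 on WT saline arrays. The lowest HDM array of either genotype was above the highest saline array. HDM raised Ccr3 by 2.60 in KO lungs (SE 0.18, 6.08-fold, limma adjusted p = 2.85e-07) and by 1.78 in WT lungs (SE 0.18, 3.44-fold, adjusted p = 4.45e-05). By p it ranked 4 among all genes in KO lungs and 9 in WT lungs.

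Ccr3 did not pass between genotypes under HDM (0.45, 95% interval 0.07 to 0.84, limma adjusted p = 0.120) or under saline (-0.37, adjusted p = 0.669), nor did the difference of the 2 HDM changes (0.82, 95% interval 0.28 to 1.37, adjusted p = 0.132). KO HDM 4, the lowest KO HDM array for Ccl24 and for Ccr3 but not for Ccl11, decided the calls under HDM and of the difference. Without it Ccr3 was higher in KO than in WT lungs under HDM by 0.65 (adjusted p = 0.00914) and the difference of the HDM changes was 1.02 (adjusted p = 0.0153). Without WT saline 2 and 3 that difference was 0.62 (limma adjusted p = 0.436). By mean level the groups ran KO HDM, WT HDM, WT saline and KO saline, and neither the HDM pair nor the saline pair of neighbours passed.

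The promoter of Ccr3 is shown because factors of the GATA family are known regulators of eosinophil genes. It is the 1 RefSeq promoter found for the 3 genes in the table used (GRCm38.p6, chr9:124021721-124022020, plus strand), and runs from 250 bases before to 50 bases after the start of the gene, with GATA matches in capitals.
Ccr3: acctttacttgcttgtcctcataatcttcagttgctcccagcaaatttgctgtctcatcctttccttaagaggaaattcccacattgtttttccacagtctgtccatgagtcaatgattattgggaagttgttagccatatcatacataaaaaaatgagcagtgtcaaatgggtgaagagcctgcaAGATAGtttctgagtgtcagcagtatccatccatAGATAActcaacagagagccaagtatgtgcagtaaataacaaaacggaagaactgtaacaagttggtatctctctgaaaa
The letters AGATAA were searched on both strands along with the forms AGATAG as well as TGATAA and likewise TGATAG, and the window held 2 matches on the plus strand, beginning 64 and 30 bases before the start. Among 32851 promoters of the same length, 29.8% held at least 1 match and 7.77% at least 2. The Stat pattern TTCNNNGAA, present in 8.30% of promoters, had no match in this window. A match is a description of letters and not a shown binding site.

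In KO lungs 3 of the 3 genes rose with HDM, where 8.84% of all genes changed and 4.96% rose, and all 3 had HDM arrays wholly above the saline arrays, as had 6.71% of genes. In WT lungs 2 of 3 rose, where 17.6% of all genes changed and 7.86% rose, and those 2 had HDM arrays wholly above saline, as had 9.13% of genes. Between genotypes under HDM 2 of 3 were higher in KO lungs, against 5.84% of all genes (11.7% in either direction), and 1, Ccl24, had KO arrays wholly above WT arrays, as had 5.74% of genes. In the difference of the HDM changes 2 of 3 passed as higher in KO, against 0.356% of all genes (0.802% in either direction). None of the 3 passed between genotypes under saline, where 0.231% of genes did. At an unadjusted p the 3 genes stood at 0.0774, 0.0809 and 0.0591 there, all 3 lower in KO lungs by mean. Without WT saline 2 and 3 these differences were -0.17 for Ccl11, -0.17 for Ccl24 and -0.16 for Ccr3, in place of -0.35, -0.76 and -0.37. For all 3 genes those arrays were the 2 highest of WT saline, so smaller differences without them follow from that choice.

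**Figure D2:**
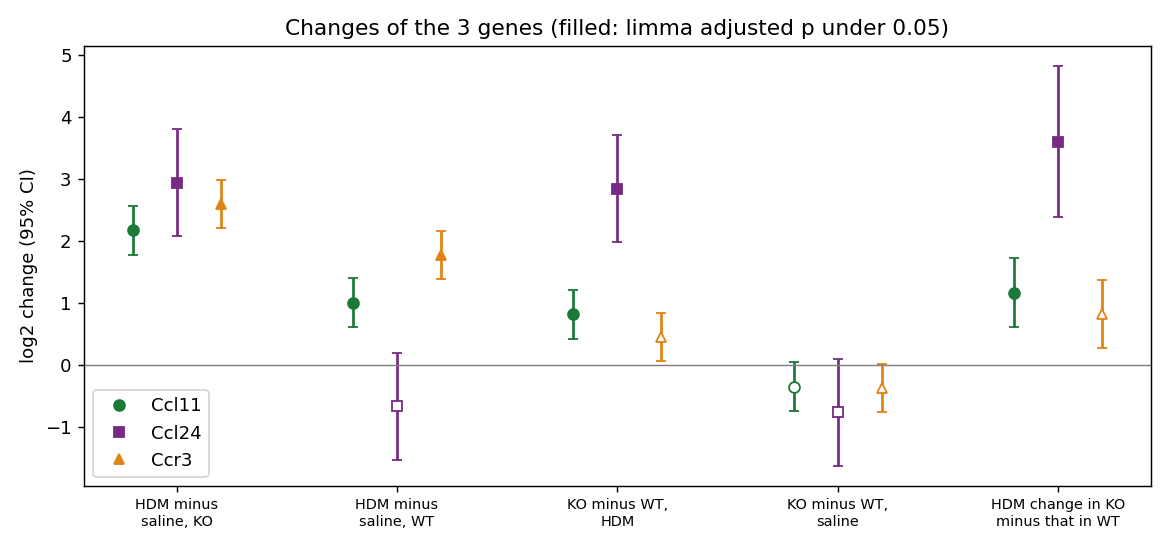
Log2 change of Ccl11, Ccl24 and Ccr3 in the 5 comparisons, with limma's 95% intervals and filled symbols for an adjusted p under 0.05. The Ccl24 change is 2.94 with HDM in KO lungs and -0.66 in WT lungs, while the Ccr3 changes are 2.60 and 1.78.

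Circadian genes moved with the contrast between genotypes under HDM. Of 13 measured clock genes 7 were lower in KO HDM than in WT HDM lungs and 0 higher, with Dbp, a clock output factor, lower by 1.17 on the log2 scale (change -1.17, limma adjusted p = 0.000126). A clock score was the mean of the standardised clock genes, each given its sign on their first principal component over these same arrays. That component was turned so that Dbp was positive. With the clock score as a covariate Ccl24 was higher in KO lungs under HDM by 2.11 (SE 0.51, adjusted p = 0.0936), Ccl11 by 0.59 (adjusted p = 0.322) and Ccr3 stood at -0.01 (adjusted p = 0.989). That fit called 69 genes in this contrast, against 2327 without the covariate, and 0 in the difference of the HDM changes, against 160. The rises with HDM passed in it as before, at 2.98, 2.19 and 2.62 for Ccl24, Ccl11 and Ccr3 in KO lungs and at 1.25 and 2.28 for Ccl11 and Ccr3 in WT lungs.

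Under HDM the balance of the 2 eotaxins was lower on every WT array than on every KO array, on KO HDM 4 by a narrow margin. A difference of 2 probe sets on an array has no meaning as a level, but its change between groups shows that the genes changed unequally. Ccl24 minus Ccl11 was -0.02, -0.34, 0.76 and -1.97 on KO HDM arrays 1 to 4, and -0.88, -1.30, -1.09 and -1.37 on KO saline arrays. WT HDM arrays had -2.05, -2.22, -2.61 and -2.80, and WT saline arrays -0.92, -0.51, -0.18 and -1.38. All 4 WT HDM arrays were below the other 12, KO HDM 4 came closest to them, and KO HDM 1, 2 and 3 were above the 4 KO saline arrays. The mean difference changed with HDM by 0.77 in KO lungs and by -1.67 in WT lungs, values given without a test. They follow from the changes of the 2 genes given above. WT saline 2 and 3 had the highest values of their group, so the WT fall is smaller without them.

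Among arrays of a group, Ccl24 moved with Ccr3 and less so with Ccl11. Over the deviations of the 16 arrays from their group means, Pearson's r was 0.73 for Ccl24 with Ccr3, 0.32 for Ccl24 with Ccl11 and 0.11 for Ccl11 with Ccr3. These arrays share tissue and normalization, and the coefficients are descriptions of them. For Ccl24, KO HDM 3 (12.18) and KO HDM 4 (9.30) lay farthest from their group mean (10.76). The SD of Ccl24 was 1.18 on KO HDM and 0.68 on WT saline arrays, against 0.17 on KO saline and 0.20 on WT HDM arrays. The coefficients with Ccl24 therefore mostly describe KO HDM and WT saline arrays.

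**Figure D3:**
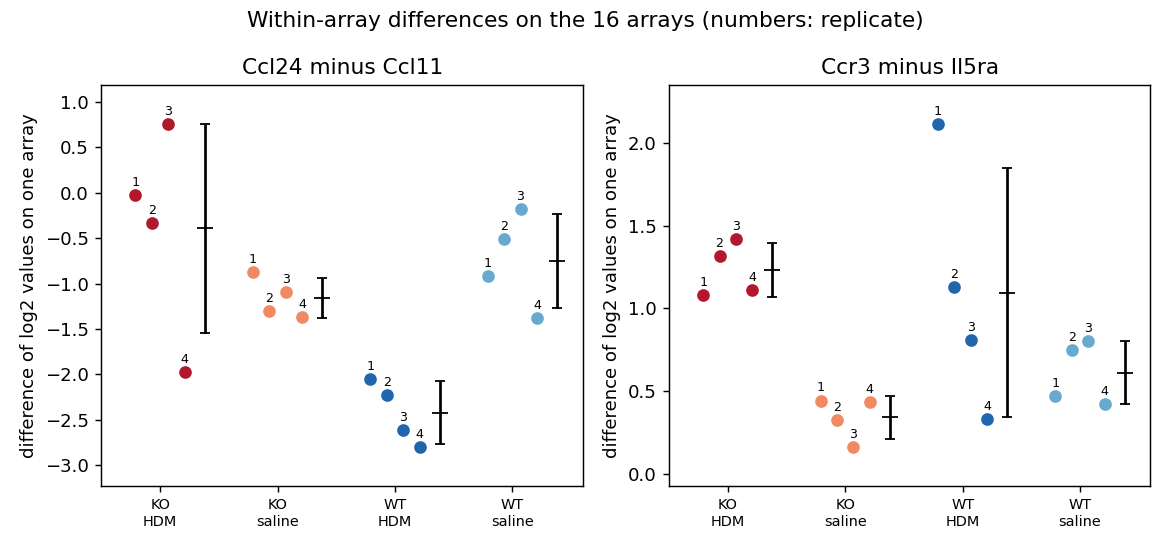
Difference of 2 log2 values on each of the 16 arrays (left, Ccl24 minus Ccl11; right, Ccr3 minus Il5ra), with the replicate number above each point and the group mean ± SD as a black bar. For Ccl24 minus Ccl11 the WT HDM arrays lie between -2.80 and -2.05, under the other 3 groups; for Ccr3 minus Il5ra the WT HDM arrays spread from 0.33 to 2.12.

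The type 2 cytokine axis, known to induce eotaxins, was described by its members. Beside the counts below, 4.96% of all genes rose with HDM in KO lungs and 7.86% in WT lungs (8.84% and 17.6% in either direction). Of 17 measured genes of 20 listed, 6 rose and 0 fell with HDM in KO lungs (list median 0.25, all genes -0.03), and 2 rose and 1 fell in WT lungs (list median -0.05, all genes -0.05). Those that rose in KO lungs were Il13ra2, a decoy receptor for Il13 (1.17, limma adjusted p = 0.00157), Il17rb, the receptor chain for Il25 (0.78), Il33, an alarm cytokine of epithelium (0.63), the eosinophil growth factor Il5 (0.49), Il4 (0.45) and Gata3, the master factor of type 2 helper T cells (0.40). In WT lungs Il33 (0.49) and Stat6 (0.18) rose, and Il25 was lower (-0.22).

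Il13 itself was at 8.96 to 9.14 on KO HDM arrays and 8.48 to 8.93 on WT HDM arrays, against 8.60 to 8.92 on KO saline and 8.75 to 8.87 on WT saline arrays. It did not pass for HDM against saline in either genotype (0.26 in KO, limma adjusted p = 0.0637, and -0.07 in WT, adjusted p = 0.596) and was higher in KO than in WT lungs under HDM (0.30, adjusted p = 0.0329). In that contrast 5 of the 17 were higher and 0 lower (list median 0.24, all genes 0.02), which were Il13, Il4ra, the shared receptor chain for Il4 and Il13 (0.40), Il13ra2 (0.99), Il17rb (0.61) and Crlf2, a receptor chain for Tslp (0.24). Over all genes 5.84% were higher in that contrast. The count of 5 was 3 without each of KO HDM 1, KO HDM 3 and WT HDM 2, 8 without KO HDM 4, and 0 with the clock covariate. For Il17rb the HDM changes differed between genotypes (0.68, adjusted p = 0.0175, lost without WT saline 2 and 3). Without WT saline 2 and 3 the WT calls of Stat6 (0.20) and Il25 (-0.21) were lost, as was that of Il13 between genotypes under HDM (limma adjusted p = 0.0531).

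Among the other ligands that can bind Ccr3 no rise passed. Of 4 measured, 0 rose in KO lungs and 0 in WT lungs, and 1 fell in both. An unadjusted p under 0.05, whatever the direction, was reached by 3 of the 4 in each genotype. Ccl28, a mucosal chemokine that also binds Ccr10, was at 7.71 to 7.89 on KO HDM arrays against 8.69 to 8.91 on KO saline arrays, and at 7.74 to 8.10 on WT HDM arrays against 8.17 to 8.56 on WT saline arrays. The change was -1.04 in KO lungs (limma adjusted p = 5.55e-06) and -0.46 in WT lungs (adjusted p = 0.00521), with no overlap of groups. Ccl5 (-0.51 and -0.46), the monocyte attractant Ccl7 (0.73 and 0.00) and Ccl26 (-0.04 and -0.18), named for human eotaxin-3, did not pass in KO or in WT lungs.

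CC and atypical chemokine receptors other than Ccr3 changed in 4 of 12 measured cases in KO lungs, all higher (list median 0.14, all genes -0.03), and in WT lungs 3 were higher and 1 lower (list median -0.06). Over all genes 4.96% rose in KO lungs and 7.86% in WT lungs, and 5.84% were higher in KO lungs under HDM. Ccr1, a receptor of monocytes and neutrophils, rose by 0.98 in KO lungs (limma adjusted p = 0.00347) and by 0.59 in WT lungs (adjusted p = 0.0393). Ccr2, which takes up monocyte attractants, rose by 0.58 and 0.55, and Ccr9, a gut-homing receptor, by 0.46 and 0.50. Ccr8, the receptor of type 2 helper T cells for Ccl1 and, in mice, Ccl8, changed by 0.98 in KO lungs (adjusted p = 9.89e-05) and by -0.03 in WT lungs (adjusted p = 0.870), with a difference of 1.02 between these changes (adjusted p = 0.0147, lost without WT saline 2 and 3). The receptor that was lower in WT lungs was Ccr6 (-0.44, adjusted p = 0.0333). Without WT saline 2 and 3 the WT calls of Ccr1 (0.73) and Ccr6 (-0.45) were lost. Between genotypes under HDM, Ccr8 (0.96) and the type 2 helper cell receptor Ccr4 (0.49) were higher in KO lungs and Ccrl2, which holds chemerin at the cell surface, was lower (-0.26). Without KO HDM 4 the count of receptors higher in KO lungs was 4 in place of 2. With the clock covariate 1 was higher and 0 lower.

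Markers of eosinophils, the main cells that carry Ccr3, rose in 5 of 8 measured cases of 10 listed in KO lungs (list median 0.98, all genes -0.03) and in 2 of 8 in WT lungs (list median 0.14), with 0 lower in either. The shares of all genes that rose were 4.96% in KO lungs and 7.86% in WT lungs. Il5ra, the receptor chain that keeps eosinophils alive, was at 9.72, 9.32, 9.50 and 8.90 on KO HDM arrays against 7.59 to 7.70 on KO saline arrays. On WT HDM arrays it was at 8.33, 8.57, 9.50 and 9.77, against 7.64 to 7.94 on WT saline arrays. The HDM change was 1.71 in KO lungs (limma adjusted p = 0.000249) and 1.30 in WT lungs (adjusted p = 0.00255), with no overlap of groups. HDM arrays were wholly above saline arrays for 6.71% of all genes in KO lungs and 9.13% in WT lungs.

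Ccr3 and Il5ra did not order the WT HDM arrays alike. WT HDM 1 had the highest Ccr3 and the lowest Il5ra of its group, so that Ccr3 minus Il5ra was 2.12 there, against 1.13, 0.81 and 0.33 on WT HDM 2, 3 and 4. It was 1.08 to 1.42 on KO HDM arrays, 0.16 to 0.44 on KO saline arrays and 0.43 to 0.80 on WT saline arrays.

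Alox15, a lipoxygenase of eosinophils and macrophages, rose by 2.91 in KO lungs and by 1.68 in WT lungs (limma adjusted p = 2.92e-07 and 0.000161). Rnase2a (5.33), the ribonuclease Ear6 (1.41) and Prg2, the major basic protein of eosinophil granules (0.56), passed in KO lungs, and in WT lungs they stood at 1.43, -0.07 and 0.03 and did not pass. Without WT saline 2 and 3 the Rnase2a change in WT lungs was 2.55 and passed (limma adjusted p = 0.00345). Rnase2a was the gene that showed those 2 arrays apart. A larger WT rise and a smaller saline difference of this gene without them therefore follow from that choice. Under saline Rnase2a averaged 7.63 ± 0.74 in KO lungs and 10.23 ± 1.37 in WT lungs (SD, n = 4 each), a called difference (-2.59, limma adjusted p = 0.0322) that was -1.48 without those 2 arrays (adjusted p = 0.353). Under HDM it averaged 12.97 in KO lungs and 11.66 in WT lungs and did not pass (1.31, limma adjusted p = 0.0935). Those 2 saline arrays are not part of this contrast. Without them the change was again 1.31, and it passed (adjusted p = 0.0262) through the variance estimate of the fit. The HDM changes differed between genotypes for Rnase2a (3.90, adjusted p = 0.0182) and Ear6 (1.48, adjusted p = 0.0277), and both of these calls were lost without WT saline 2 and 3 (2.79 and 1.25). Epx, the granule peroxidase that eosinophils make in the bone marrow, lay between 7.34 and 7.67 on the 16 arrays and the granule gene Prg3 between 7.79 and 8.12, and neither passed in any of the 5 comparisons. Siglecf, on eosinophils and alveolar macrophages, was at 10.04 to 10.68 on KO HDM arrays and 10.00 to 10.31 on WT HDM arrays, against 10.01 to 10.10 on KO saline and 9.74 to 10.05 on WT saline arrays, and did not pass (0.25 in both genotypes). Between genotypes under HDM 3 of the 8 markers were higher in KO lungs, Ear6 (1.51), Alox15 (0.78) and Prg2 (0.58), and 0 with the clock covariate. Over all genes 5.84% were higher in that contrast without the covariate. The mean over the 8 markers was 9.52 to 10.14 on KO HDM, 8.20 to 8.47 on KO saline, 9.05 to 9.50 on WT HDM and 8.41 to 9.04 on WT saline arrays. The part that eosinophil numbers play in the Ccr3 change was not tested.

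Mast cells and basophils can also carry Ccr3. Of 12 of their markers 6 rose in KO lungs (3 without KO HDM 2) and 1 in WT lungs (0 without WT saline 2 and 3), with 0 lower in either. The list median was 0.36 in KO lungs (all genes -0.03) and 0.12 in WT lungs (all genes -0.05). The shares of all genes that rose were 4.96% in KO lungs and 7.86% in WT lungs. Between genotypes under HDM 4 were higher in KO lungs and 1 lower, and the count of 4 was 0 without KO HDM 2 and 0 without WT HDM 2. The lower one was Kit, which averaged 11.33 on KO HDM and 11.72 on WT HDM arrays. The proteases Mcpt1 (4.24, limma adjusted p = 0.000327) and Mcpt2 (4.63, adjusted p = 0.000139) and the carboxypeptidase Cpa3 (1.59) were among those in KO lungs. Mcpt8, the basophil protease, did not pass (-0.06 in KO, adjusted p = 0.823, and -0.24 in WT, adjusted p = 0.164). The mast cell protease Cma1 averaged 7.45 on KO HDM and 7.49 on KO saline arrays. Over the 12 the mean was 8.61 to 9.24 on KO HDM, 7.76 to 7.90 on KO saline, 7.85 to 8.71 on WT HDM and 7.83 to 8.31 on WT saline arrays. Of 7 markers of T cells and their type 2 helper form 2 rose in KO lungs, Gata3 and Ccr8, and 1 in WT lungs, Cd4 (0.36, lost without WT saline 2 and 3). The mean over the 7 was 9.58 to 9.87 on KO HDM, 9.31 to 9.50 on KO saline, 9.39 to 9.67 on WT HDM and 9.33 to 9.50 on WT saline arrays. Their part in the Ccr3 change was not tested either.

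Markers of alternatively activated macrophages, a known source of Ccl24, rose in 9 of 10 cases in KO lungs (list median 1.11, all genes -0.03) and in 4 of 10 in WT lungs (list median 0.39), with 0 lower. Over all genes 4.96% rose in KO lungs and 7.86% in WT lungs, and 5.84% were higher in KO lungs under HDM. Arg1, the enzyme that breaks down arginine, lay at 9.83 to 11.79 on KO HDM arrays against 7.67 to 7.93 on KO saline arrays, and at 8.41 to 9.75 on WT HDM arrays against 7.97 to 9.41 on WT saline arrays. Like Ccl24, Arg1 rose in KO lungs (3.02, limma adjusted p = 0.000106) and did not pass in WT lungs (0.30, adjusted p = 0.585), with a difference of 2.71 (adjusted p = 0.0289, and 0.162 without WT saline 2 and 3). The HDM changes of the lectin gene Cd209e differed by 2.07 (adjusted p = 0.00371, and 0.0313 without those 2 arrays). Between genotypes under HDM 4 of the 10 were higher in KO lungs and 0 lower, with 7 higher without KO HDM 4 and 1 with the clock covariate. The elastase Mmp12 rose in both, by 3.44 in KO and 1.51 in WT lungs, as did Retnla, a secreted product of these macrophages, by 1.32 and 0.76 (1.19 in WT without WT saline 2 and 3). The mean over the 10 was 10.65 to 11.32 on KO HDM, 9.48 to 9.69 on KO saline, 10.12 to 10.58 on WT HDM and 9.36 to 10.17 on WT saline arrays, and their part in the Ccl24 change was not tested.

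Fibroblast and smooth muscle markers, from cells known to secrete Ccl11, changed in both directions. The shares of all genes that changed in either direction were 8.84% with HDM in KO lungs and 17.6% in WT lungs. Between genotypes under HDM the share was 11.7%. In KO lungs 4 of 11 rose and 2 fell (list median 0.13, all genes -0.03), and in WT lungs 1 rose and 2 fell (0 and 1 without WT saline 2 and 3, list median -0.05). Their mean was 11.05 to 11.33 on KO HDM, 11.05 to 11.18 on KO saline, 11.12 to 11.27 on WT HDM and 11.08 to 11.31 on WT saline arrays, so all 4 ranges overlapped. Collagen gene Col1a1 rose by 0.27 in KO lungs (limma adjusted p = 0.00655) and the matrix proteoglycan gene Dcn was lower (-0.51, adjusted p = 0.000915). Under HDM 3 of these 11 were higher in KO lungs and 1 lower than in WT lungs, with Col1a1 at 0.43 and Dcn at -0.53. Among 8 airway epithelial markers, 2 rose and 2 fell in KO lungs and 4 rose in WT lungs (2 without WT saline 2 and 3). Mucous cell genes Clca1 (3.38 and 2.64) and Muc5ac (1.23 and 1.42) rose in KO and in WT lungs, and the club cell gene Scgb3a2 was lower in KO lungs (-1.05). Set against WT lungs under HDM, 0 of the 8 were higher in KO lungs and 3 lower, Scgb1a1 (-0.94), Scgb3a2 (-0.65) and Cyp2f2. With the clock covariate 0 genes of either list passed in that contrast. The mean over these 8 was 11.34 to 11.56 on KO HDM, 11.08 to 11.19 on KO saline, 11.65 to 11.95 on WT HDM and 10.76 to 11.25 on WT saline arrays, and for neither list was its part in the Ccl11 change tested.

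**Figure D4:**
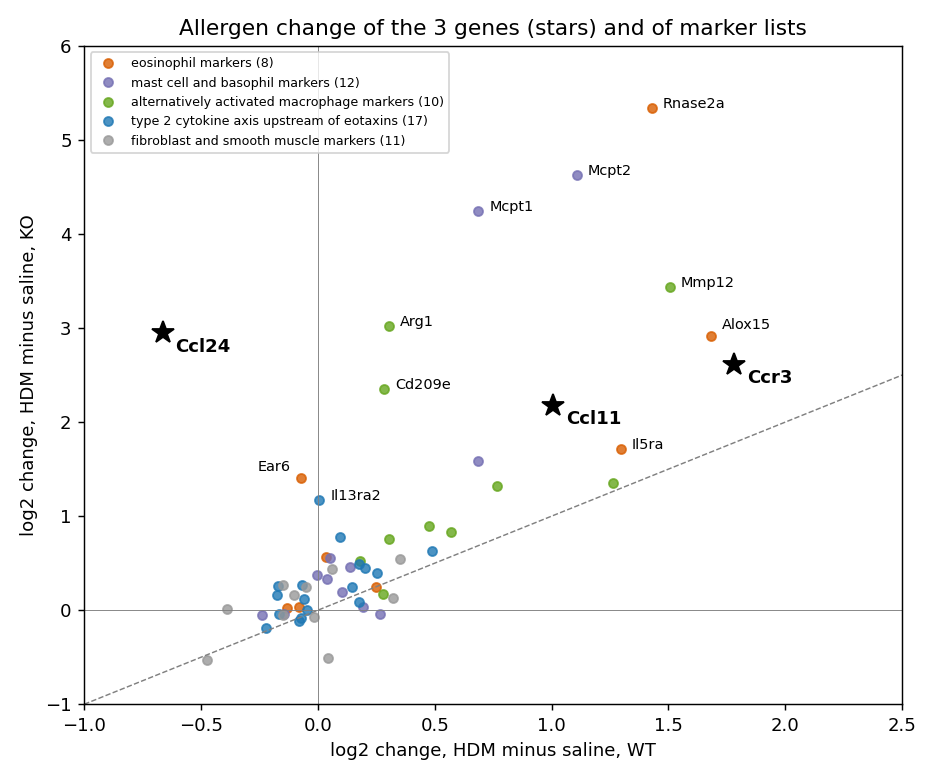
Log2 change with HDM in KO lungs (vertical axis) against that in WT lungs (horizontal axis), over different arrays, for the 3 genes (stars) and for the measured members of 5 lists (number in brackets); the dashed line marks equal change and the axes differ in scale. Ccl24 lies at 2.94 in KO and -0.66 in WT, left of every other point.

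The chromosomal neighbours of the 3 genes were examined too, where 4.96% of all genes rose with HDM in KO lungs and 7.86% in WT lungs. Ccl11 lies on chromosome 11 in a cluster of CC chemokine genes, and of the 10 measured genes nearest to it 1 rose in KO lungs, Ccl8 (1.58, limma adjusted p = 0.00251). In WT lungs 0 of these 10 rose and 1, 1700071K01Rik, was lower (-0.38, adjusted p = 0.004). Ccl7, the next gene on one side, and Ccl2 beyond it did not pass in KO lungs (0.73, limma adjusted p = 0.0663, and 0.53, adjusted p = 0.0552). Around Ccl24 on chromosome 5, next to Ccl26, 0 of 10 genes passed in any of the 5 comparisons with limma, and at an unadjusted p under 0.05 the counts were 1 for HDM in KO, 3 for HDM in WT and 0 for the other 3. Ccr3 lies on chromosome 9, and its 6 neighbours examined were the receptor genes Cxcr6, Xcr1, Ccr1, Ccr1l1 and Ccr2 and, farther off, Fyco1. In KO lungs 3 of the 6 rose, Ccr1, Ccr2 and Cxcr6 (0.45), and in WT lungs 3, Ccr1, Ccr2 and Fyco1 (0.41), of which Ccr2 alone passed without WT saline 2 and 3. Their rises were 0.98 or less, against 2.60 for Ccr3 in KO lungs and 1.78 in WT lungs. Between genotypes under HDM 3 of these 6 were higher in KO lungs, among them Cxcr6 (0.55), and 1, Fyco1, was lower (-0.44). Of the 10 neighbours of Ccl11, 1 was higher in that contrast, Ccl8 (1.27, limma adjusted p = 0.0116), and 0 lower. The share of all genes higher there was 5.84%.

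By Pearson's r over the 16 arrays, the genes most like each of the 3 were not the same. Closest to Ccl11 was Corin, a membrane protease that activates natriuretic peptides (r = 0.97), followed by Alox15 (0.96) and the galectin gene Lgals1 (0.95). Closest to Ccl24 was Ocstamp, a membrane protein of fusing macrophages and osteoclasts (r = 0.97), followed by Ear6 (0.95), and Ccr8 was also among the 8 (0.95, 4 by rank). Closest to Ccr3 was Gapt, an adaptor protein of blood cells (r = 0.99), followed by Alox15 (0.98). Alox15 was among the 8 nearest of both Ccl11 and Ccr3. The arrays fall into groups, so these coefficients mostly describe group differences.

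The levels of these genes are a description, since they were chosen for likeness over the same arrays. Ocstamp lay at 10.36, 10.39, 10.54 and 9.54 on KO HDM arrays 1 to 4, against 8.76 to 9.0 on KO saline arrays, and at 8.66 to 9.11 on WT HDM arrays against 8.82 to 9.27 on WT saline arrays. KO HDM 4 was the lowest KO HDM array, and WT saline 2 and 3 were the highest WT saline arrays. Gapt lay at 10.87 to 11.53 on KO HDM and 10.44 to 10.90 on WT HDM arrays, against 8.82 to 9.08 on KO saline and 8.90 to 9.55 on WT saline arrays. Corin lay at 10.73 to 11.67 on KO HDM and 9.33 to 10.76 on WT HDM arrays, against 8.70 to 8.90 on KO saline and 9.10 to 9.66 on WT saline arrays. Over deviations from the group means the closest gene to Ccl24 was Fetub, a protease inhibitor (r = 0.91), with Ear6 (0.89) and Ocstamp (0.88) next, and the closest named to Ccr3 was P2ry6, a nucleotide receptor (0.91). For Ccl11 the closest by that measure was Mrnip (0.91), and the others of the 5 were Mcpt1 (0.87), Ankrd6 (0.85), Ly96 (0.85) and Mcpt2 (0.84). Mcpt1 and Mcpt2 encode mast cell proteases.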

How the data were processed

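The deposited table holds log2 values of 35556 probe sets, which the authors made by RMA in Affymetrix Expression Console (the submitters' processing notes give no versions). RMA subtracts background, equalises the arrays' distributions and so removes overall shifts between arrays. Probe sets were named from the platform annotation: 21789 had 1 symbol, 1621 several and 12146 none, and only the first kind was used. Of a gene's probe sets the one with the highest mean was taken, giving 19938 genes (999 had several), and no filter on dim genes was applied. A model of 4 group means was fitted with limma 3.58.1 in R 4.3.3 (12 residual degrees of freedom), and p-values were adjusted by Benjamini-Hochberg over all 19938 genes, with calls at 0.05. It was tested on simulated data with 200 changed genes. Of these, 199 were recovered for HDM in KO, with 13 false calls. For the difference of the HDM changes 194 were recovered, with 13 false calls. Recovery at the effect sizes and the unequal group spreads of Ccl11, Ccl24 and Ccr3 was not tested. Alternatives were other normalizations, a filter, other variance estimates, a replicate block, a clock score, and arrays left out. Named were the 3 genes, Vldlr, 10 gene lists, up to 5 genes on either side of each gene on its chromosome, and the 8 genes (5 for deviations) nearest by Pearson's r; of these the text prints a selection made after their values were seen. The members and lists were chosen with earlier results of these data known. The Ccr3 promoter came from RefSeq (GRCm38.p6).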

Additional observations from a re-analysis of the deposited data

Results flagged for a closer look

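The HDM change differed between genotypes, by the test of the difference itself, for 15 of the 60 genes examined here, against 0.802% of all genes. These genes were selected, some of them for likeness to Ccl11 or Ccl24 (Corin, Ocstamp, Fetub and Ear6), so the share of 15 says nothing of its own. Larger in KO than in WT lungs were the changes of Ccl24 (3.61), Rnase2a (3.90), Arg1 (2.71), Cd209e (2.07), Corin (1.66), Ocstamp (1.51), Ear6 (1.48), Fetub (1.25), Ccl11 (1.17), Ccr8 (1.02), Il17rb (0.68) and Col1a1 (0.42), on the log2 scale. The difference was negative for Dbp (-1.27), Scgb3a2 (-0.98) and Dcn (-0.56). Without WT saline 2 and 3 only Cd209e of these 15 passed (1.75, limma adjusted p = 0.0313), while the values kept their direction (Il17rb 0.63, Ccr8 0.92, Col1a1 0.46, Dcn -0.61, Dbp -1.21, Rnase2a 2.79). With the clock score as a covariate none passed, the lowest adjusted p being 0.0663.

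A single array lay apart from the other 3 of its group in 8 of 248 combinations, which are those 60 genes and the 2 within-array differences in each of 4 groups, where chance gives about 1 in 20. KO HDM arrays apart were number 2 for Ccl26 (7.74, nearest 7.89), number 1 for Ccr6 (8.92, nearest 8.56) and number 3 for Cd4 (10.24, nearest 9.88). KO saline 4 was high for Ccl5 (11.42, nearest 10.55) and KO saline 2 low for Gapt (8.82, nearest 9.04). WT HDM 2 was low for Gapt (10.44, nearest 10.84) and WT HDM 1 for Fetub (8.93, nearest 9.31). WT saline 3 was low for Cxcr6 (9.08, nearest 9.23). No array of Ccl11, Ccl24 or Ccr3 was apart by this measure.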

How the results depend on the processing

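Of 387 alternative fits of the 15 results on Ccl11, Ccl24 and Ccr3, 359 kept direction and side of the threshold, 22 lost a call, 4 gained one and 2 changed direction. The rises with HDM of Ccl11, Ccl24 and Ccr3 in KO lungs and of Ccl11 and Ccr3 in WT lungs were called in every alternative run. The higher Ccl11 of KO lungs under HDM lost its call in a fit of only those groups (0.82) and with the clock score (0.59). Its difference of HDM changes lost the call under quantile normalization (1.17), equal medians (1.14), a variance trend with robust estimation (1.17), without WT saline 2 and 3 (0.99) and with the clock score (0.93), and ranged from 1.01 to 1.33 with 1 array left out. For Ccl24 the clock score turned the WT change (0.13, adjusted p = 0.932) and ended the calls between genotypes under HDM (2.11) and of the difference (2.84), and this last call was also lost without WT saline 2 and 3 (3.02). For Ccr3 between genotypes under HDM, array weights gave 0.51 (adjusted p = 0.0454), the clock score turned it to -0.0101, and leaving out 1 array 0.31 to 0.65. The Ccr3 difference was 0.91 with array weights (adjusted p = 0.0354) and 0.68 to 1.02 with 1 array left out. It was 0.62 without WT saline 2 and 3 (limma adjusted p = 0.436), and its lowest value over the other alternatives was 0.34. The cause of these changes was not tested.

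Same-numbered arrays were not treated as pairs: 7 of 24 such pairs correlated above 0.1 (-0.276 to 0.333), and in 16 of 48 cases an array was closest to its own number. With the replicate block the difference of HDM changes was 1.17 for Ccl11 (adjusted p = 0.0108) and 3.61 for Ccl24 (adjusted p = 0.0039), no call on the 3 genes changed, and 258 genes in place of 160 were called in that comparison. That count was 12 without WT saline 2 and 3, 0 with the clock score, 680 with array weights and 1019 without KO HDM 4. The 4 arrays a group limit the precision, and the clock score was highest in WT HDM lungs (-0.114 to 1.903, against -0.753 to 0.235 in KO HDM), so that genotype under HDM and clock state are partly confounded.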
